A study of Homo sapiens with 4 samples.

Results

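The genes described here encode replacement and variant histones, the forms of the core and linker histones that are made from single-copy genes outside the large histone gene clusters. They were chosen by symbol, after symbols in the platform annotation had been updated, from a list of 9 genes: H2AZ1, H2AZ2, H2AX, H2AJ, MACROH2A1, MACROH2A2, H3-3A, H3-3B and H1-10. Of the 17687 named genes measured, 8 of these 9 had a probe set, 1 each. No probe set was listed under H3-3A, which is not analysed here. Signals came from DU145, an established, androgen-independent line of human prostate cancer, grown in RPMI medium with serum. Cultures received vehicle, No.10-3 (5 µM), low-dose C-30 (0.5 µM) or high-dose C-30 (2 µM) for 48 h. Both compounds are described as inhibitors of PSF, the RNA-binding protein encoded by SFPQ, and the study asked how gene expression in castration-resistant cells responds to them. Each condition had a single array. No error or p-value can therefore be given, and every statement is about these 4 arrays. In such bulk RNA, fewer cells that express a gene and less of its RNA per cell cannot be told apart.

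Most histone protein is made in S phase from clustered genes whose transcripts end in a stem-loop in place of a poly(A) tail. Variant histones are instead supplied through the cell cycle, mostly from polyadenylated transcripts, and are placed into chromatin by dedicated chaperones and remodelling complexes. H2A.Z marks nucleosomes near transcription start sites, H3.3 replaces H3 at active genes and at repeats, H2A.X is phosphorylated at DNA breaks, and macroH2A carries a large extra domain and is enriched on the inactive X chromosome. H2A.X is a special case, because its gene gives both a stem-loop transcript and a longer polyadenylated one.

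Signals are log2 values, and a difference between 2 arrays is a log2 difference, counted when it reached 2-fold (1 on the log2 scale). A gene entered a comparison when the higher of its 2 signals reached 5.56, the median over named genes. The background level of an array is the 95th percentile of its 612 negative control probe sets and lay between 7.06 and 7.32. Of the 8 genes, 6 were above it on all arrays. H2AJ was above it on 3 arrays and H1-10 on none. The line carried its epithelial markers, with KRT7, KRT8, KRT18, KRT19 and EPCAM above background on each array, whereas KRT5 and CDH1 were above it on none. Of 15 measured markers of leukocytes, fibroblasts, endothelial and neuroendocrine cells, 14 were above background on no array, and COL1A2 was above it only on the array of low-dose C-30.

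The promoters of 5 genes are shown because these genes share promoter features with the clustered histone genes and yet differed in how their signals stood on the C-30 arrays. H2AX, H2AJ and H2AZ2 had lower signals there, and H2AZ1 and H3-3B did not have lower signals at the high dose. Each sequence is the 250 bases before the annotated start of the gene, 5′ to 3′ on the gene's strand, from RefSeq on GRCh38.p14. Capitals mark CCAAT boxes (CCAAT, or ATTGG where it lies on the other strand) and TATA boxes (TATAAA).
H2AX, chr11:119095466-119095715, minus strand: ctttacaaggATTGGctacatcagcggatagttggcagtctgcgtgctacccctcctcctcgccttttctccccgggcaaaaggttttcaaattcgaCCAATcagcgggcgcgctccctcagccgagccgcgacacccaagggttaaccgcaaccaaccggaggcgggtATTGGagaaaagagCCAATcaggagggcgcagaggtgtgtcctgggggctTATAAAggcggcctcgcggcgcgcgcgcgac
H2AJ, chr12:14774155-14774404, plus strand: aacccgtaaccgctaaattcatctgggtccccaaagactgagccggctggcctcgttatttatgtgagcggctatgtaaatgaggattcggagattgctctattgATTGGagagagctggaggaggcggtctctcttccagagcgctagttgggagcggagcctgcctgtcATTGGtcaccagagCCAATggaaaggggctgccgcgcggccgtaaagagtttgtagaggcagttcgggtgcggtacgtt
H2AZ2, chr7:44848088-44848337, minus strand: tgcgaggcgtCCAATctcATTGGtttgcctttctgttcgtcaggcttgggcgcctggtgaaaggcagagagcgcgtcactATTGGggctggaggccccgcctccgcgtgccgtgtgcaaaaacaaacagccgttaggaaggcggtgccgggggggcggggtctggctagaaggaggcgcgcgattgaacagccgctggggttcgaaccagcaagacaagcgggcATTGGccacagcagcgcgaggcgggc
H2AZ1, chr4:99950276-99950525, minus strand: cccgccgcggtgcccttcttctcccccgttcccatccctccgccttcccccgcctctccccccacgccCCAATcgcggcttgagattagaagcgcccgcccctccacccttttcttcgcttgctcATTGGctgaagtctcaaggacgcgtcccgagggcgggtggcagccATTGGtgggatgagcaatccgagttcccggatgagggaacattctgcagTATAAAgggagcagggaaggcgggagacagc
H3-3B, chr17:75779780-75780029, minus strand: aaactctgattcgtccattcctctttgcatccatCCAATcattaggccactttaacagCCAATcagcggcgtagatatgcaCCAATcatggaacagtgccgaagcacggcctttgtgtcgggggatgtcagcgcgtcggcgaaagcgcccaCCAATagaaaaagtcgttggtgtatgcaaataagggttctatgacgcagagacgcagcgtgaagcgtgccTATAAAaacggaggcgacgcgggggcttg

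These promoters were rich in CCAAT boxes, the element bound by the factor NF-Y. They were picked for features shared with cluster genes, so this richness follows from the choice and is not a test. H2AX, H2AZ2 and H3-3B held 4 each, and H2AZ1 and H2AJ held 3 each. At least 1 CCAAT box was found in 32.7% of 22199 promoters of protein-coding genes of the same length and in 85.3% of 68 promoters of replication-dependent histone cluster genes, and 2 or more in 10.5% and 69.1%. A TATA box lay 31 bases before the start in H2AX and H2AZ1 and 29 bases before it in H3-3B, and none was found in H2AZ2 or H2AJ. The TATA letters occurred in 9.0% of promoters of protein-coding genes and in 66.2% of those of cluster genes. The promoter of H1-10 held a TATA box and no CCAAT box, and that of MACROH2A2 held neither. MACROH2A1 has a pair of annotated starts, of which 1 held 2 CCAAT boxes and the other none. The promoters at the annotated starts of H3-3A held no TATA box and at most 1 CCAAT box each. No promoter of the 9 genes held an E2F site as TTTCGCGC, TTTGGCGC or TTTCCCGC on either strand, letters found in 2.94% of promoters of protein-coding genes and in 19.1% of those of cluster genes. The GC box, GGGCGG, had 2 matches in H2AZ1, 1 in H2AZ2 and none in H2AX, H2AJ or H3-3B, and occurred in 53.7% of promoters of protein-coding genes and 26.5% of those of cluster genes. The cell cycle element CHR, as TTTGAA or TTCGAA, had 1 match each in H2AX and H2AZ2 and in no other promoter of the 9 genes, against 12.1% and 33.8%. A match describes letters only. With high-dose C-30, the CCAAT-rich promoters shown belonged both to genes with lower signals than with vehicle and to genes without. The promoters were picked, and whether their letters bear on the signals was not tested.

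With high-dose C-30, 5 of the 7 variant histone genes past the floor were lower than with vehicle and 2 were higher, but none by 2-fold. Of all genes past the floor, 53.6% were lower. The linker gene H1-10 (Entrez gene 8971, chromosome 3, 129314771 to 129316286), which encodes the variant H1x, did not reach the floor, with signals of 4.56 with vehicle, 4.34 with No.10-3, 4.43 with low-dose C-30 and 4.52 with high-dose C-30. Nothing is read from it. Of all genes past the floor, 10.8% passed 2-fold either way with high-dose C-30, 6.17% with low-dose C-30 and 5.67% with No.10-3. Of the 7 genes, 0 passed it in each of these comparisons, which is near those shares. At 1.5-fold, 4 of the 7 were counted with high-dose C-30, all lower, beside 33.5% of all genes. That count rests on the scaling: under 3 of the 4 other scalings tried it was 2, H2AX and H2AJ, and after centring on genes past the floor it was 3, with MACROH2A2. None was counted at 1.5-fold with low-dose C-30, beside 25.6%, or with No.10-3, beside 23.1%. The median difference of the 7 genes from vehicle was 0.11 with No.10-3, -0.26 with low-dose C-30 and -0.63 with high-dose C-30, and that of all genes past the floor was 0.05, -0.04 and -0.06. These comparisons share the 1 vehicle array and are not independent of each other.

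**Figure D1:**
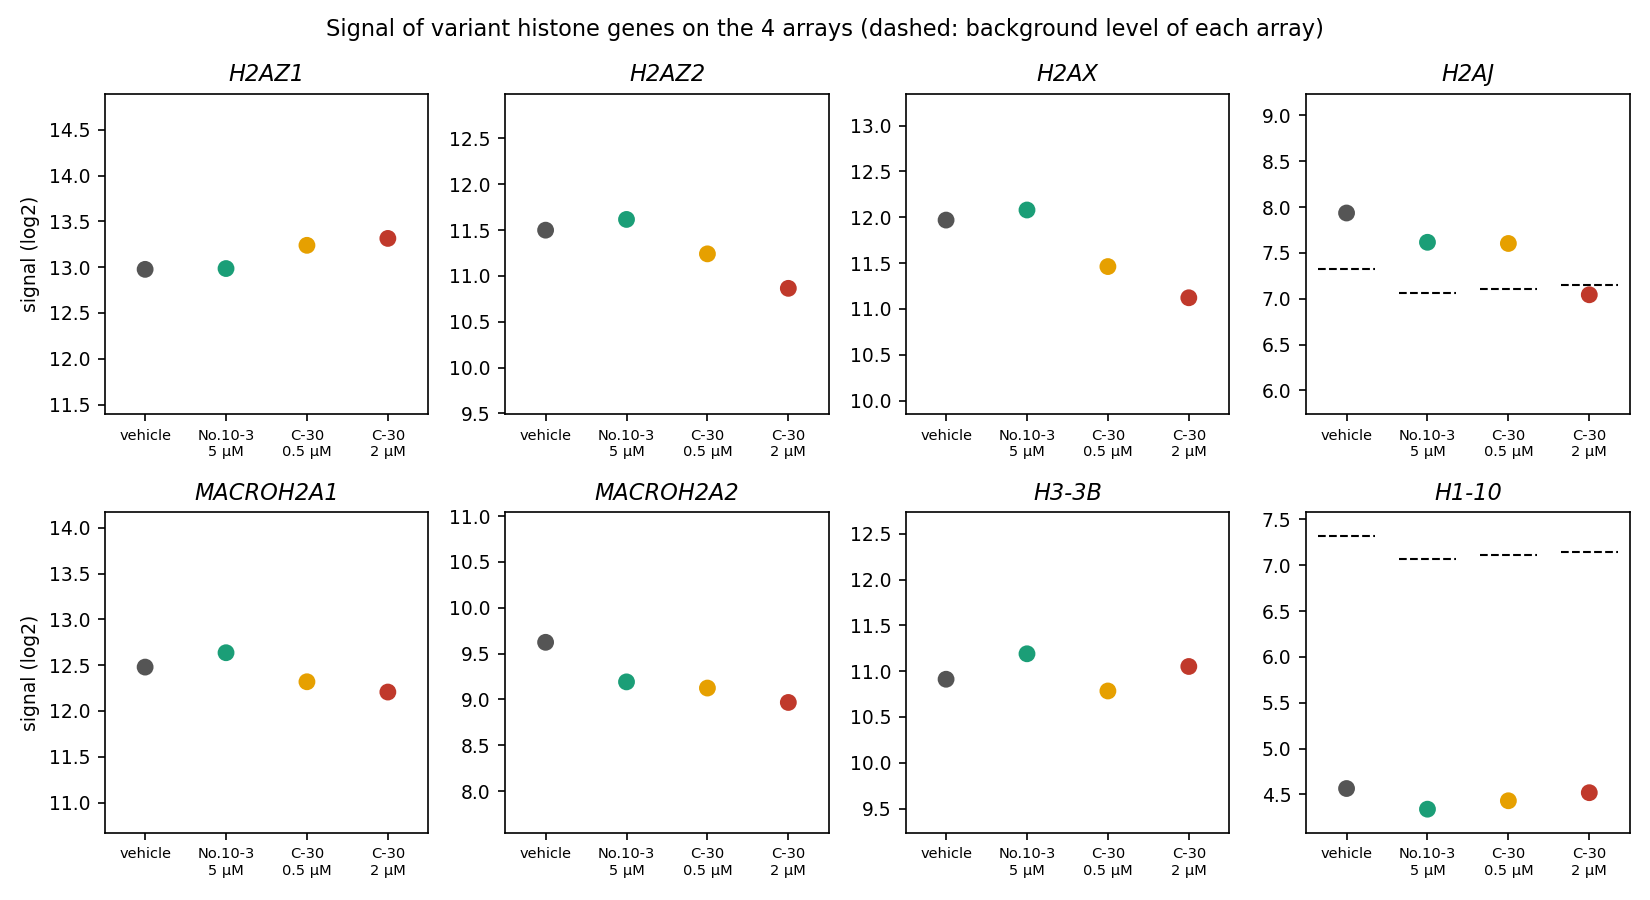
Signal (log2) of each of the 8 measured variant histone genes on the 4 arrays, 1 point per array, in panels of equal height; the dashed segments give the background level of each array where it lies in range. H2AX and H2AZ2 are lowest on the array of high-dose C-30, H2AZ1 is highest there, and H1-10 lies under the background level throughout.

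H2AX (Entrez gene 3014, chromosome 11, 119093874 to 119095465 in GRCh38.p14) encodes H2A.X, whose phosphorylated form recruits repair factors to double-strand breaks. Its signal was 11.97 with vehicle, 12.08 with No.10-3, 11.46 with low-dose C-30 and 11.12 with high-dose C-30. The vehicle and No.10-3 arrays were close together, the C-30 arrays were lower, and the higher dose was the lowest. The differences from vehicle were 0.11, -0.51 and -0.85, so that the last is a 1.80-fold lower signal. Of genes past the floor, 9.67% had a lower difference than H2AX with high-dose C-30, and among 427 genes whose mean signal lay within 0.5 of its own 13.1% did. With low-dose C-30 these shares were 17.1% and 17.7%, and with No.10-3 they were 55.2% and 54.0%. As deposited, H2AX had the widest range of the members over the arrays, 0.96 beside 0.89 for H2AJ, but under each of the 4 other scalings H2AJ had the wider one, at 0.82 to 0.86 beside 0.72 to 0.80. The span of DPAGT1, a gene of protein glycosylation, overlaps that of H2AX in RefSeq, and DPAGT1 stood at -0.76 with low-dose C-30 and -0.36 with high-dose C-30. Whether probes named for H2AX read both genes was not tested.

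H2AJ (Entrez gene 55766, chromosome 12, 14774405 to 14778002) encodes H2A.J, a variant that differs from canonical H2A mainly at its C-terminal tail. Its signal was 7.94 with vehicle, 7.62 with No.10-3, 7.60 with low-dose C-30 and 7.04 with high-dose C-30. It was highest with vehicle, alike on the No.10-3 and lower-dose arrays, and under the background level of 7.15 on the last array, so its difference there is inexact. The differences from vehicle were -0.32, -0.33 and -0.89 in the order of the arrays, and no rank is given for the last. The nearest cluster histone gene is H4C16, an H4 gene 3273 bases away on the same chromosome. H4C16 had signals between 5.38 and 5.54, under the floor, and gives no comparison.

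H2AZ1 and H2AZ2 encode nearly identical forms of H2A.Z from separate genes, and on the C-30 arrays their signals lay further apart. H2AZ1 (Entrez gene 3015, chromosome 4, 99948088 to 99950275) had signals of 12.98 with vehicle, 12.98 with No.10-3, 13.24 with low-dose C-30 and 13.31 with high-dose C-30. H2AZ2 (Entrez gene 94239, chromosome 7, 44826889 to 44848126) had signals of 11.50, 11.62, 11.24 and 10.86 on the same arrays. H2AZ1 was thus highest, and H2AZ2 lowest, on the array of high-dose C-30. The differences of H2AZ1 from vehicle were 0.26 and 0.34 at the lower and higher dose of C-30, and those of H2AZ2 were -0.26 and -0.63. With No.10-3 they were 0.01 and 0.12, and H2AZ1 stood slightly below 0 under each of the 4 other scalings tried, at -0.09 to -0.03. At 2 µM 73.8% of genes past the floor had a lower difference than H2AZ1 and 16.4% a lower one than H2AZ2.

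Within an array, a ratio of both genes is free of the scaling of that array as a whole. The ratio of H2AZ1 to H2AZ2 differed from that with vehicle by -0.11 with No.10-3, 0.52 with low-dose C-30 and 0.97 with high-dose C-30. The last is a 1.96-fold shift, against a 1.08-fold shift the other way with No.10-3. A ratio shows unequal change of the genes and not which of them changed. RefSeq lists 8 pseudogenes of H2A.Z, and probes that read more than 1 copy would make single values uncertain.

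MACROH2A1 and MACROH2A2 encode the macroH2A proteins, of which macroH2A1 is the better studied. MACROH2A1 (Entrez gene 9555, chromosome 5, 135334381 to 135399887) had signals of 12.48 with vehicle, 12.64 with No.10-3, 12.32 with low-dose C-30 and 12.21 with high-dose C-30. MACROH2A2 (Entrez gene 55506, chromosome 10, 70052846 to 70112282) had signals of 9.62, 9.19, 9.12 and 8.97. MACROH2A2 was highest with vehicle and lower on each treated array, while MACROH2A1 was highest with No.10-3. The differences of MACROH2A2 were -0.43, -0.50 and -0.66 with No.10-3, low-dose C-30 and high-dose C-30, and those of MACROH2A1 were 0.16, -0.16 and -0.27. With No.10-3 14.5% of genes past the floor were lower than MACROH2A2, which made it the lowest of the variant histone genes there. Within arrays the ratio of MACROH2A1 to MACROH2A2 was higher than with vehicle by 0.59, 0.34 and 0.38. The transcript isoforms of MACROH2A1, which differ in the domain that binds ADP-ribose, were not told apart by its 1 probe set. The span of MACROH2A2 overlaps that of AIFM2, a gene of a coenzyme Q reductase, at -0.62, -0.46 and -0.29 on the treated arrays. AIFM2 was above background only with vehicle, so these differences are inexact. Its part in the values of MACROH2A2 was not tested.

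**Figure D2:**
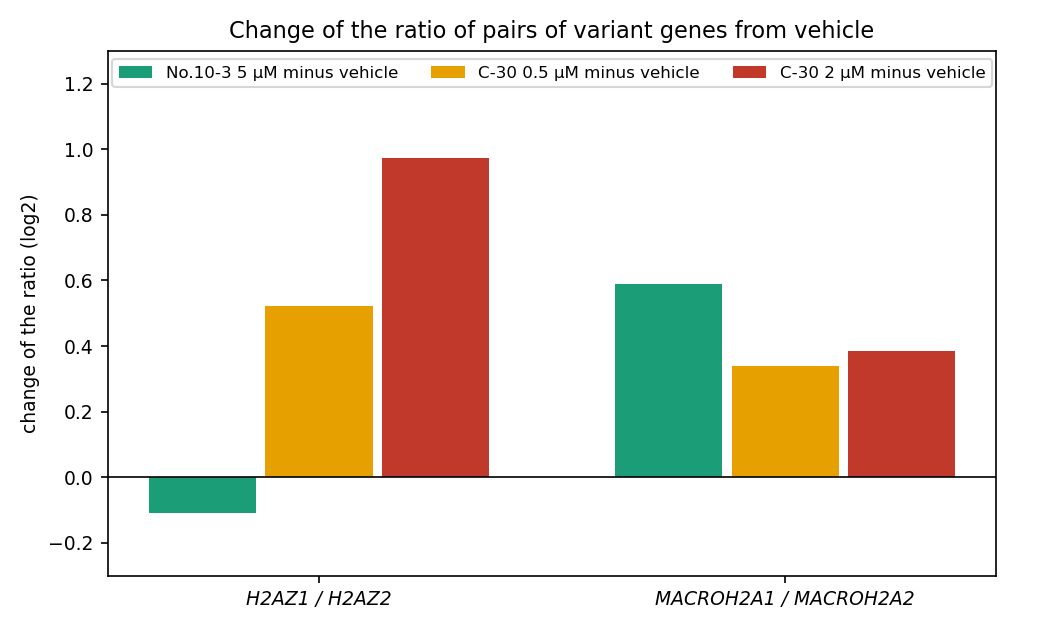
Change from vehicle of the log2 ratio of H2AZ1 to H2AZ2 and of MACROH2A1 to MACROH2A2, a bar for each treated array. The H2A.Z ratio stands at -0.11 with No.10-3 and at 0.52 and 0.97 with C-30, and the macroH2A ratio between 0.34 and 0.59.

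H3-3B (Entrez gene 3021, chromosome 17, 75776434 to 75779779) encodes H3.3, the same protein as H3-3A. Its signal was 10.91 with vehicle, 11.19 with No.10-3, 10.78 with low-dose C-30 and 11.05 with high-dose C-30. It was highest with No.10-3, lowest on the low-dose array, and between vehicle and No.10-3 on the high-dose array. The differences from vehicle were 0.28, -0.13 and 0.14. All lay inside the middle of the genes measured, with 68.1%, 42.9% and 62.4% of genes past the floor below it. RefSeq lists 2 pseudogenes with an older symbol built on that of H3-3B, and 47 pseudogenes with H3 symbols. Probes that also read such copies would make single values uncertain.

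**Figure D3:**
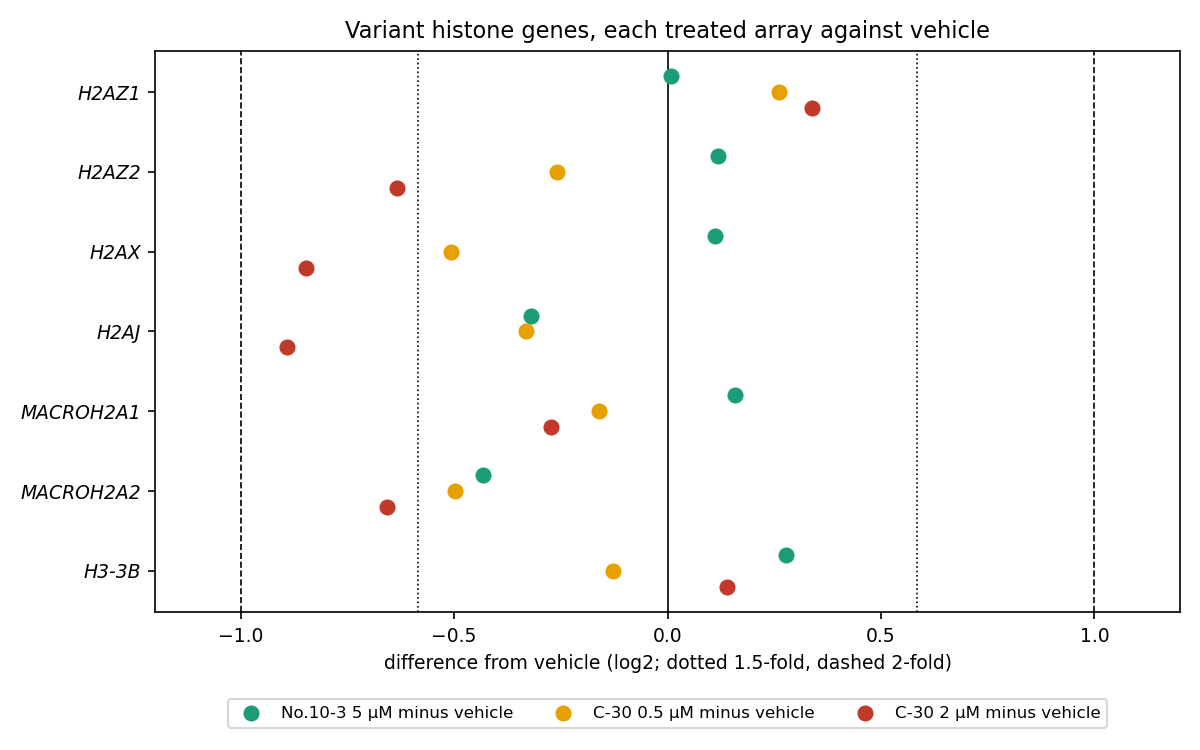
Difference from vehicle (log2) of the 7 variant histone genes past the floor, 1 point for each treated array; dotted lines mark 1.5-fold and dashed lines 2-fold. With high-dose C-30 H2AJ, H2AX, MACROH2A2 and H2AZ2 lie past the 1.5-fold line, from -0.89 to -0.63, and no point reaches 2-fold.

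Along the doses of C-30, 5 of the 7 genes were lower at 0.5 µM than with vehicle and lower again at 2 µM: H2AX, H2AJ, H2AZ2, MACROH2A1 and MACROH2A2. H2AZ1 was higher at each step, and H3-3B followed neither order. Among 9506 genes past the floor on at least 1 of these 3 arrays, 25.8% were lower and 19.6% higher at each step. Both steps use the array of 0.5 µM, so the order is a description of 3 arrays. Between the doses themselves, the median difference of the 7 genes was -0.16, beside -0.03 for all genes. The differences ran from -0.56 for H2AJ to 0.27 for H3-3B. H2AJ lay under background at 2 µM, so its difference and its last step are inexact. H2AZ2 stood at -0.38 and H2AX at -0.34. None of the 7 passed 2-fold or 1.5-fold between the doses, where 3.57% and 17.8% of all genes did.

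The compounds were compared directly on the arrays of high-dose C-30 (2 µM) and No.10-3 (5 µM), doses that differ. All genes past the floor had a median of -0.12 in this comparison, and the 4 other scalings moved that median by 0.12 to 0.17. Members are therefore read against it. H2AX stood at -0.96 and H2AZ2 at -0.75, the 2 members past 1.5-fold, beside 30.1% of all genes. Under 3 of the 4 other scalings H2AZ2 fell short of 1.5-fold, at -0.58 to -0.54, which left H2AX alone. No member passed 2-fold, beside 8.05% of all genes. Next came H2AJ at -0.57, MACROH2A1 at -0.43, MACROH2A2 at -0.22 and H3-3B at -0.14, and H2AZ1 stood at 0.33. The value of H2AJ is inexact here too, as it lay under background with high-dose C-30. The difference of H3-3B was above 0 under each of the other scalings, at 0.02 to 0.08. For H2AX 6.67% of genes past the floor were lower, and 5.58% of 430 genes of like signal. The positive control probe sets differed by a median of -0.13 between these arrays.

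Most replication-dependent cluster genes had lower differences than the variant genes on the C-30 arrays. Their list was drawn up with these results known. With high-dose C-30, the lowest variant gene above background on both arrays was H2AX at -0.85. Of 61 measured cluster genes 53 were lower than that, with a median of -2.14 over the 61. A total of 53 cluster genes passed the floor, which admits a gene through the array where it is high, and 51 of these were lower than H2AX. The values that follow are medians over genes past the floor. The H2A cluster genes, which encode the histone that H2A.X, H2A.J, H2A.Z and macroH2A replace, had a median of -2.13 over 13 genes. The H2B genes stood at -2.71 over 16, the H3 genes at -2.94 over 7, the H4 genes at -2.26 over 11 and the H1 genes at -1.89 over 6. Of the 53 genes, 7 lay within background on both arrays, among them 2 H1 genes and 2 H2B genes. The median over the other 46 was -2.59. With low-dose C-30 the lowest variant gene was H2AX at -0.51, and 53 of the 61 measured cluster genes were lower, with a median of -1.06. With No.10-3, 12 of the 61 were lower than MACROH2A2 at -0.43, with a median of -0.21. The ranges overlapped in each comparison with vehicle. Cluster genes past the floor reached 0.50 with No.10-3, -0.04 with low-dose C-30 and -0.02 with high-dose C-30. Many cluster genes of the same core histone family are near-identical copies, so single values of cluster genes are uncertain.

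**Figure D4:**
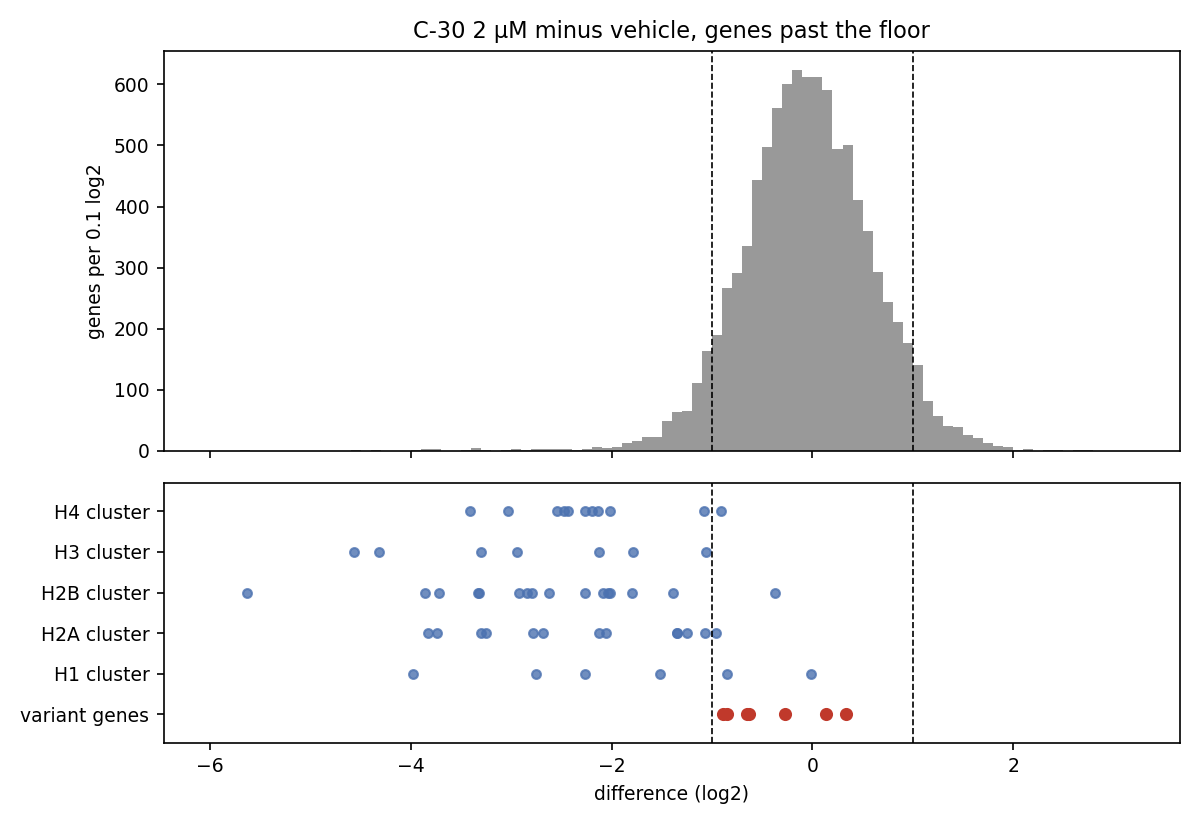
Differences (log2) of high-dose C-30 minus vehicle for genes past the floor: above, the number of genes in bins 0.1 wide; below, 1 point per gene for the variant genes and for each family of cluster histone genes, with 2-fold as dashed lines. The 7 variant genes lie between -0.89 and 0.34, and 50 of the 53 cluster genes lie lower than all of them, with the lowest variant gene, H2AJ, under background on the high-dose array.

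Genes that handle variant histones were described from lists of chaperones, exchange complexes and partners of H2A.X. Together with other variant histone genes these lists held 67 genes, of which 52 had a probe set. HIRA, which gives its name to the H3.3 chaperone complex of active genes, and SRCAP, the motor of the main H2A.Z exchange complex, had no probe set listed and are not analysed here. Of 45 past the floor with No.10-3, 3 were at least 2-fold higher and 0 lower. Of 44 with low-dose C-30 the counts were 3 and 0, and of 45 with high-dose C-30 they were 5 and 1. The shares of all genes past 2-fold are those given above. The medians were 0.18, -0.03 and 0.04. These counts and medians include 10, 11 and 10 genes within background on both arrays. ATRX, past 2-fold with No.10-3 and with high-dose C-30, is among them in both comparisons.

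Among genes of H3.3 deposition, DEK, a chromatin protein that acts as an H3.3 chaperone, had signals of 10.93 with vehicle, 12.07 with No.10-3, 12.42 with low-dose C-30 and 11.88 with high-dose C-30. It was higher on each treated array, by 1.14, 1.49 and 0.95, and the last value passed 2-fold under each of the 4 other scalings, at 1.02 to 1.13. ATRX, the remodeller that works with DAXX at telomeres and other repeats, stood at 1.60 with No.10-3 and 1.62 with high-dose C-30, but its signals of 4.28 to 5.90 lay within background. DAXX, the H3.3 chaperone itself, had signals of 7.18, 7.79, 6.90 and 6.71. It was above background only with No.10-3, and stood at 0.61, -0.28 and -0.47 against vehicle. Over the list, 7 of 7 genes past the floor were higher with No.10-3, 2 of 6 with low-dose C-30 and 5 of 7 with high-dose C-30, and the medians were 0.38, -0.09 and 0.35. Of all genes past the floor, 54.0%, 46.9% and 46.4% were higher. The list's counts include 2, 2 and 3 genes within background on both arrays, among them ASF1A, a chaperone of H3 and H4, which gave the median with No.10-3 and had signals of 5.62 to 6.24.

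Among genes of H2A.Z exchange, ACTR6, an actin-related subunit of the SRCAP complex, had signals of 7.82 with vehicle, 7.43 with No.10-3, 8.99 with low-dose C-30 and 9.30 with high-dose C-30. It was higher on both C-30 arrays, by 1.17 and 1.48, and stood at -0.39 with No.10-3. ANP32E, the chaperone that removes H2A.Z, had signals of 9.26, 9.65, 9.66 and 10.38, and differed by 0.38, 0.40 and 1.12. RUVBL2, an ATPase of several remodelling complexes, had signals of 12.17, 11.86, 11.42 and 11.17. It was lower on each treated array, and with high-dose C-30 it lay just past 2-fold as deposited and passed it under none of the other scalings, at -0.93 to -0.81. Of the 12 measured genes, 5 were higher and 7 lower with high-dose C-30, with 2 and 1 past 2-fold and a median of -0.12. Beside these counts, 53.6% of all genes past the floor were lower and 10.8% passed 2-fold either way. The list's medians were -0.15 with No.10-3 and 0.04 with low-dose C-30. The 12 include 4 genes within background with No.10-3, 4 with low-dose C-30 and 3 with high-dose C-30.

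Among the partners of H2A.X, ATM, the kinase that phosphorylates it at breaks, had signals of 7.75 with vehicle, 9.03 with No.10-3, 9.33 with low-dose C-30 and 8.84 with high-dose C-30. ATM was higher on each treated array, by 1.28, 1.59 and 1.10, and past 2-fold on each under all 4 other scalings. It was the only gene of that list past 2-fold against vehicle, of 8 past the floor. Among all genes past the floor, 5.67%, 6.17% and 10.8% passed 2-fold with No.10-3, low-dose C-30 and high-dose C-30. The list's medians were 0.23, 0.08 and -0.19. With high-dose C-30 5 of 8 genes were lower, near the 53.6% of all genes, and 1 of the 8 lay within background.

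The general histone chaperones, which bring newly made histones to replicating and transcribed DNA had a median of -0.46 with high-dose C-30. Of 12 genes, 8 were lower and 4 higher, beside 53.6% of all genes lower. NPM1, a nucleolar histone chaperone, was the only one past 2-fold, with signals of 11.99, 12.79, 12.84 and 13.07 and differences of 0.80, 0.85 and 1.08. Among all genes past the floor, 10.8% passed 2-fold with high-dose C-30. With No.10-3 the list was evenly divided, 6 higher and 6 lower, with a median of 0.03. CENPA, the H3 variant of centromeres, had signals of 7.12 with vehicle, 7.62 with No.10-3, 7.02 with low-dose C-30 and 7.67 with high-dose C-30, above background on the second and last of these. It stood at 0.50, -0.10 and 0.54, and the 3 measured genes of its deposition had medians of 0.39, 0.05 and 0.31, none past 2-fold. With No.10-3 and with low-dose C-30 the median is the value of OIP5, a gene of the Mis18 complex, whose signals of 6.24 to 6.63 were above background on no array. Of the other variant histone genes, 3 passed the floor in each comparison with vehicle, not the same 3 throughout, and CENPA alone was above background on any array.

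**Figure D5:**
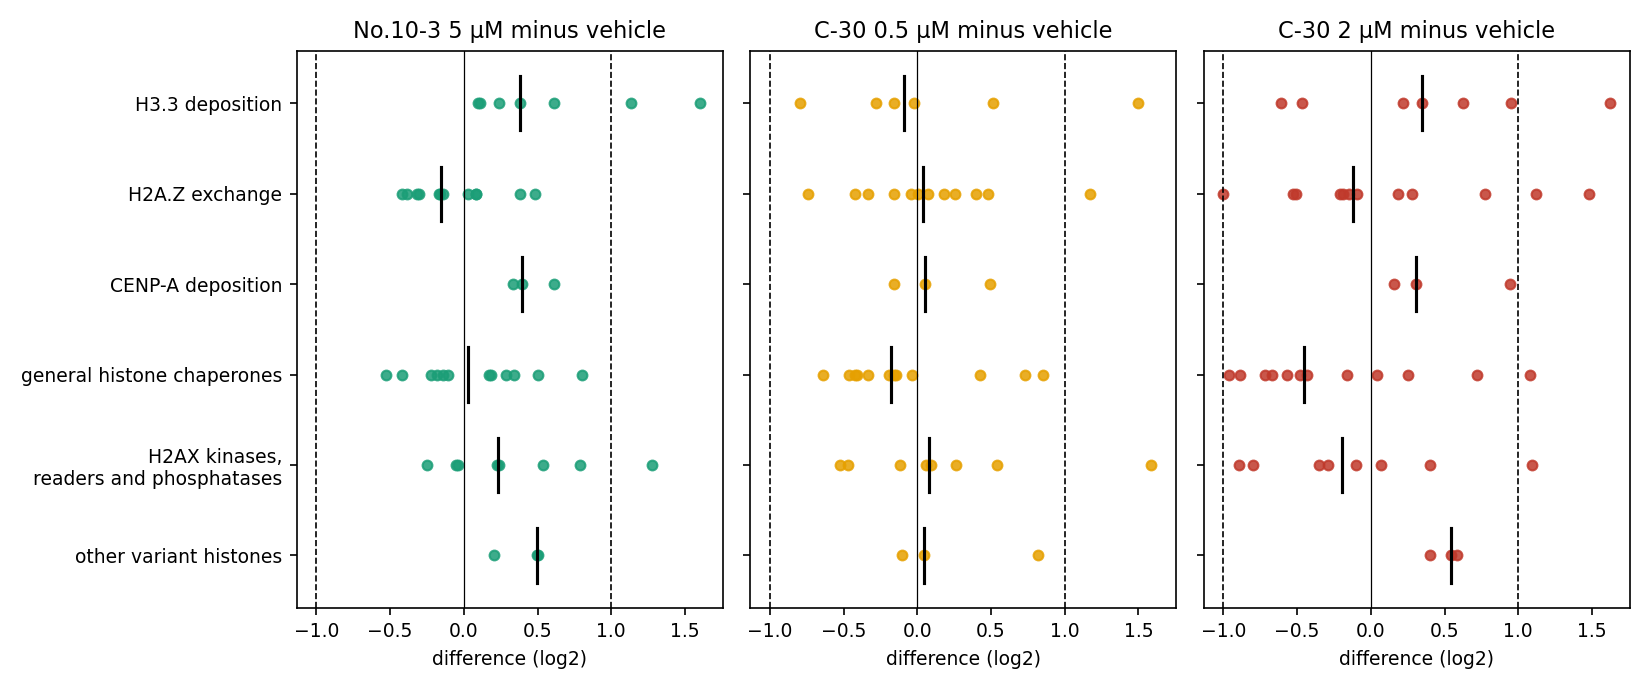
Differences from vehicle (log2) of the genes past the floor in the lists that handle variant histones, 1 panel for each treated array and 1 point per gene; black bars are list medians and dashed lines mark 2-fold. With high-dose C-30 the general chaperones have a median of -0.46 and the H3.3 deposition genes one of 0.35.

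The genes whose pattern lay closest to that of H2AX, the member with the widest range as deposited though not under the other scalings, were looked for among 8060 genes past the floor on all 4 arrays, by the distance between signals centred on each gene's mean. The nearest 5 were TCF20 (distance 0.05), a transcriptional coregulator gene, CENPM (0.05), a kinetochore gene, IDH3G (0.06), which encodes a subunit of mitochondrial isocitrate dehydrogenase, MYH10 (0.07), a nonmuscle myosin gene, and ZMYND8 (0.08), which encodes a reader of histone marks. Their differences from vehicle with high-dose C-30 ran from -0.89 for CENPM to -0.82 for IDH3G, beside -0.85 for H2AX. With 4 arrays, many genes can lie close by any such measure.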

How the data were processed

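Per the labels' protocols, a whole-transcript kit was used to label total RNA of DU145 cells. The deposited values are log2 signals. The submitters' processing notes name RMA and Affymetrix Expression Console 1.3.0. The log base was inferred from the range of the values. The highest named signal was 19.66, above the usual range of scanner readings on a log2 scale, and folds hold on this scale only. Genome build and probe annotation: not given in the sources used here.

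The platform annotation gave 1 symbol for 17709 of 24351 probe sets, several for 0 and none for 6642. All 17709 were matched by Entrez identifier to current RefSeq symbols, which gave 17687 genes, and 20 genes with several probe sets were averaged. Positions and promoters come from RefSeq on GRCh38.p14. The authors' 2 deposited tables differed by at most 5e-05.

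Differences, counts at 2-fold and medians were computed for 5 comparisons with Python 3.11.15, numpy 2.4.6, pandas 2.3.3, statsmodels 0.14.6 and matplotlib 3.10.9, and the procedure was tested on simulated data. With 1 array per condition there is no test, and precision is limited by the number of arrays. Ranks among genes of like signal use genes whose mean signal lies within 0.5. Members and lists were chosen with earlier results of these data known. Named genes are all members, listed genes past 2-fold against vehicle, DAXX, ATRX, ANP32E and CENPA whatever their values, the cluster gene nearest H2AJ, and the 5 genes most like the member of widest range as deposited. Alternatives were 4 scalings (quantile normalization over named genes, centring on the median over expressed genes or over the 2197 positive control probe sets, and lowess with fraction 0.3), a 75th-percentile floor (7.90) or none, a 1.5-fold threshold, the brightest probe set, and the other table.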

Additional observations from a re-analysis of the deposited data

How the results depend on the processing

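No paired analysis was possible because each condition has 1 array. A median was taken as moved when it differed by 0.1 or more. The 7 members past the floor held 0 past 2-fold in each of the 5 comparisons under every alternative that kept that threshold; at 1.5-fold, 4 were counted with high-dose C-30 against vehicle and 2 with high-dose C-30 against No.10-3. Under the 4 scalings, a pairing with that threshold chosen after the data had been seen, these counts were 2 to 3 and 1 to 2, with H2AX counted in both comparisons under each. The members' median with No.10-3 against vehicle, 0.11 as deposited, was 0.0097 after centring on genes past the floor. With high-dose C-30 against vehicle the median of -0.63 became -0.45 without a floor, which lets in H1-10, and -0.49 both after quantile normalization and after the lowess correction. With high-dose C-30 against No.10-3 the median of -0.43 became -0.33 without a floor and with the floor at the 75th percentile, -0.22 after quantile normalization and after lowess, -0.26 after centring on genes past the floor and -0.27 after centring on positive controls. The cause was not tested beyond what each alternative does. The medians with low-dose C-30 and between the doses did not move by 0.1 under any alternative. Of 140 differences of single members under the 4 scalings, 88 moved by less than 0.1. Values near background limit H2AJ, H1-10 and DAXX.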

Other observations

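The promoters of H2AX and H2AJ, seen side by side, both hold ATTGG followed 9 bases later by CCAAT, an inverted pair of CCAAT boxes. In H2AX the pair begins 81 bases before the start and in H2AJ 79 bases before it. This spacing was looked for only after both sequences had been seen. It occurred in 5 of 22199 promoters of protein-coding genes (0.0225%), in 0 of 68 promoters of replication-dependent histone cluster genes, and in no other promoter of the variant genes. The 5 include those of H2AX and H2AJ, in which the spacing was first seen. The share is therefore not an independent background for this pair. With high-dose C-30 H2AX stood at -0.85 and H2AJ at -0.89, the latter inexact because its signal lay under background, and with No.10-3 they stood at 0.11 and -0.32. Whether the pair bears on the signals was not tested.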
